A study of Mus musculus with 12 samples.

Results

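In the CD45 libraries of mouse 4T1 mammary tumours, the authors' annotation holds a class named T/Myeloid Hybrid, and the cells carrying that annotation are described here. There were 873 of them among the 54955 cells of the 6 CD45 libraries, and 115612 cells in all 12 libraries of the study. The authors divided them into T/Myeloid Hybrid1 (518 cells) and T/Myeloid Hybrid2 (355 cells), called Hybrid1 and Hybrid2 below. The tumours grew in the mammary fat pad of female BALB/c mice aged 9 to 11 weeks after orthotopic implantation of 4T1-derived cells: clones E, EM1, EM2, EM3 and M, or the parental 4T1 line. Each clone is a single derivative of 4T1, and each group is 1 tumour with 1 Total and 1 CD45 library, so differences between tumours have no replicate check. Tumours were dissociated with collagenase A and hyaluronidase, red cells were lysed, and CD45 magnetic beads separated the fractions. The annotation of the Total libraries has no hybrid class.

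T cells recognise antigen through a receptor made of Trac and Trbc chains held in a complex with CD3 proteins. Macrophages make complement C1q and carry the receptor for colony-stimulating factor 1, and granulocytes are rich in the calcium-binding proteins S100a8 and S100a9. A droplet that holds RNA of a T cell and a myeloid cell is read as 1 cell whether the cells were attached to each other in the suspension or entered the droplet separately. Transcript counts alone do not tell these apart.

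The cell barcodes show which libraries shared droplets. Each has 24 bases: 16 that name the droplet and 8 that tell apart the libraries of one capture well. Every CD45 and Total library carried a single 8-base barcode, some libraries carried the same one, and libraries loaded together share droplets. The barcodes of a pair of hybrid cells are shown because a cell of another tumour was read from the same droplet as each (lower case, droplet bases; capitals, the 8-base barcode). They are the hybrids with the most unique molecular identifiers (UMIs, counted transcripts) among those with at least 5 UMIs of T genes that shared a droplet with the other tumour.
Clone E, Hybrid1: caagactaggtgagccAACGGGAA
Clone EM3, granulocyte: caagactaggtgagccATGTTGAC
Clone EM1, Hybrid1: cttgatgtcttcgcttAACGGGAA
Clone EM2, other myeloid: cttgatgtcttcgcttATGTTGAC
The clone E hybrid held 16682 UMIs, 75 of them from 13 T genes and 409 from 13 macrophage genes, and the clone EM3 granulocyte of the same droplet held 1692 UMIs. The clone EM1 hybrid held 14984 UMIs, 45 from T genes and 457 from macrophage genes, beside 947 UMIs in the clone EM2 cell. Each of these droplets gave cells of both tumours. Over all pairs of libraries, 14 pairs shared 818 to 1760 droplets, 12.2% to 19.1% of the smaller library, and the other 52 pairs shared 46 to 211, or 0.686% to 1.91%. The 14 pairs fell into 4 sets taken here as capture wells: clones E and EM3, clones EM1 and EM2, clone M alone and the parental tumour alone.

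The CD45 libraries held 6791 to 11024 cells and 28083101 to 57116299 UMIs each. Hybrids numbered 224 for the clone E tumour, 171 for EM1, 150 for EM2, 198 for EM3, 74 for M and 56 for the parental tumour. As a share of all cells this was 2.06% for E (95% Clopper-Pearson interval 1.80% to 2.34%), 1.80% for EM1 (1.54% to 2.09%), 1.64% for EM2 (1.39% to 1.92%) and 1.80% for EM3 (1.56% to 2.06%). The share was 0.974% in M (0.766% to 1.22%) and 0.825% in the parental tumour (0.623% to 1.07%). The intervals of M and the parental tumour lay below those of the other 4 tumours. M and the parental tumour also had the smallest CD45 libraries (7595 and 6791 cells) and were each alone in a capture well. Tumour and cell loading therefore cannot be told apart in this difference. All intervals on cells and UMIs given here cover counting error only.

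The split between Hybrid1 and Hybrid2 also differed. Hybrid1 made up 65.2% of hybrids for E, 55.6% for EM1, 66.0% for EM2 and 64.1% for EM3, against 32.4% for M (22.0% to 44.3%) and 48.2% for the parental tumour (34.7% to 62.0%). The M tumour was also the only one of the 6 with fewer macrophages than granulocytes, at 0.672 macrophages per granulocyte, where the others had 1.73 to 4.32. Per 100 annotated T cells there were 12.4 hybrids for E, 5.64 for EM1, 8.20 for EM2, 11.5 for EM3, 10.8 for M and 6.97 for the parental tumour. On that scale M was among the higher tumours.

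The marker genes given for the class were Cd3e, C1qa and Csf1r, and all of them described Hybrid1, while of these Hybrid2 had Cd3e. Levels are in CPM, the UMIs of a gene relative to all UMIs of the summed cells of a class on the usual counts-per-total scale, and since the authors clustered on these genes they are given as a description. Cd3e, a CD3 chain, stood in Hybrid1 at 369 CPM for E, 431 for EM1, 370 for EM2, 328 for EM3, 185 for M and 225 for the parental tumour. In Hybrid2 it stood at 944, 669, 740, 797, 487 and 738 CPM in the same order. T cells held 976 to 1436 CPM, macrophages 1.03 to 4.92 and granulocytes 3.19 to 19.2, so both hybrid groups lay between T cells and the myeloid classes in every tumour. Trac, the alpha chain of the T cell receptor, gave the same order, with 224 to 418 CPM in Hybrid1, 549 to 828 in Hybrid2 and 1296 to 1647 in T cells.

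C1qa, a chain of complement C1q, stood in Hybrid1 at 2266 CPM for E, 4112 for EM1, 3110 for EM2, 2048 for EM3, 3322 for M and 2103 for the parental tumour, against 3571 to 6493 in macrophages. In Hybrid2 it was 263, 219, 271, 430, 117 and 530 CPM, below the level in T cells of the same tumour in all 6 (338, 363, 418, 553, 286 and 714 CPM). Csf1r, the receptor for colony-stimulating factor 1, was 579 to 973 CPM in Hybrid1 and 837 to 1340 in macrophages. It was 90.1 to 176 CPM in Hybrid2, beside 48.9 to 126 in T cells and 137 to 213 in granulocytes. In Hybrid2, then, C1qa was below T cells and granulocytes, and Csf1r was between T cells and granulocytes when tumours were summed (116 CPM, against 85.3 and 185).

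Hybrid2 instead held granulocyte genes. S100a8 stood at 20219 CPM for E, 29263 for EM1, 25335 for EM2, 22078 for EM3, 23112 for M and 13109 for the parental tumour, against 54412 to 84756 in granulocytes and 327 to 682 in Hybrid1. Cxcr2, a chemokine receptor of neutrophils, was 250 to 470 CPM in Hybrid2, 870 to 1179 in granulocytes and 1.86 to 13.6 in Hybrid1. In all 6 tumours Hybrid2 was above Hybrid1 for both genes. The authors' reference-based label (singleR with ImmGen) gave a similar division: it called 426 of the Hybrid1 cells macrophages (82.2%) and 79 monocytes (15.3%), and 254 of the Hybrid2 cells neutrophils (71.5%).

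**Figure D1:**
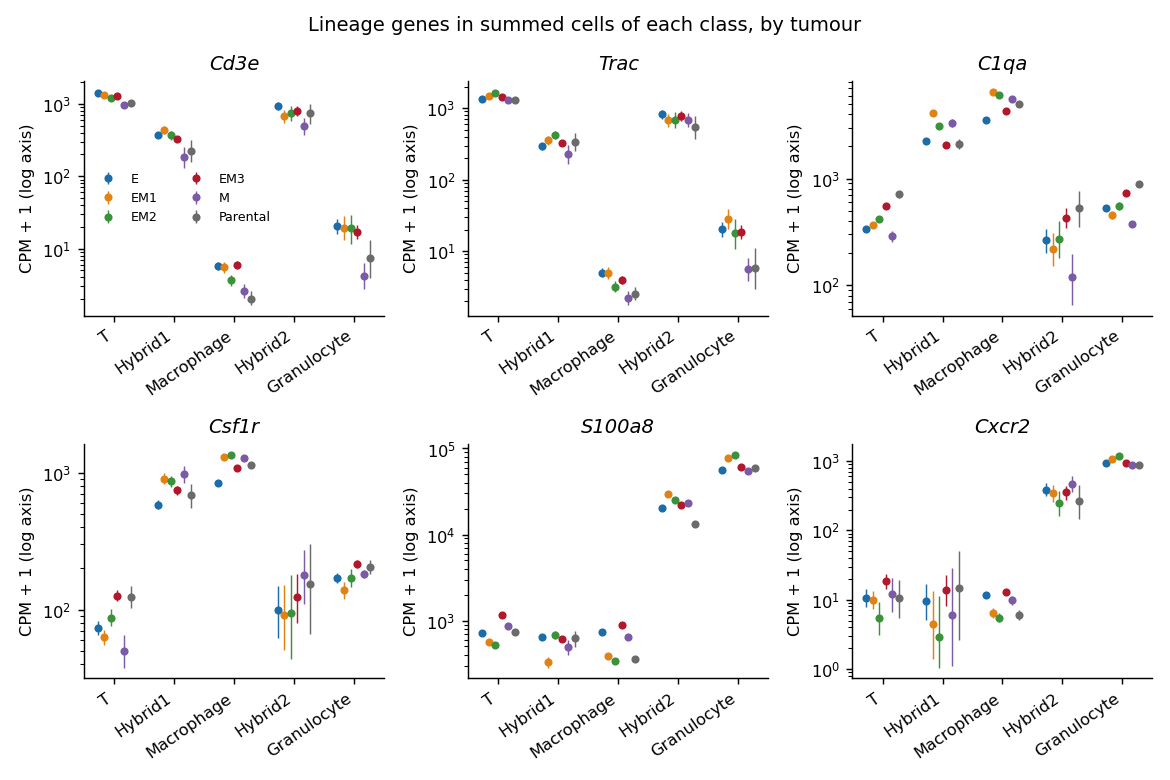
Levels of Cd3e, Trac, C1qa, Csf1r, S100a8 and Cxcr2 (CPM + 1, log axis) in summed T cells, Hybrid1, macrophages, Hybrid2 and granulocytes; each point is 1 tumour and bars are 95% Poisson intervals. Cd3e is between the parent classes in both hybrid groups, C1qa is high only in Hybrid1 and macrophages (2048 to 6493 CPM), and S100a8 only in Hybrid2 and granulocytes (13109 to 84756 CPM).

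Marker lists of other cell types differed in level. Over the 4 tumour epithelial genes the summed level was 3.49 CPM in Hybrid1 and 8.21 in Hybrid2, and over the 5 B cell genes 11.3 and 9.38. Among B cell genes Pax5 was at 0 in Hybrid1, and Cd79a, Ms4a1 and Pax5 were at 0 in Hybrid2. The plasma cell list stood at 703 CPM in Hybrid1 and 62.2 in Hybrid2, beside 576 in macrophages and 119 in T cells. Nearly all of it in Hybrid1 was Sdc1, a cell surface proteoglycan (699 CPM, against 571 in macrophages), with Jchain at 4.03 and Mzb1 at 0.269. The 8 dendritic cell genes summed to 503 CPM in Hybrid1 and 848 in Hybrid2, beside 1598 in T cells and 188 in macrophages. Most of this was Ccr7, a chemokine receptor also carried by T cells (380, 768 and 1550 CPM in Hybrid1, Hybrid2 and T cells). Flt3, a receptor of dendritic cells and their precursors, was at 0 in both hybrid groups. The mast cell list (Cpa3, Mcpt4, Kit) stood at 27.1 CPM in Hybrid1 and 1473 CPM in Hybrid2.

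Depth followed the classes that each group resembled. Median UMIs per Hybrid1 cell were 7256.5 for E, 5900 for EM1, 5094 for EM2, 7539 for EM3, 6985.5 for M and 5256 for the parental tumour. Macrophages had 6048, 5464, 5144.5, 7585, 7660.5 and 6380.5, and T cells 1712, 1052, 978.5, 1719, 1394 and 1028. Hybrid1 was therefore deeper than macrophages in E and EM1 and shallower in the other 4. Divided by the sum of the T and macrophage medians, the Hybrid1 median was 0.935, 0.905, 0.832, 0.810, 0.771 and 0.709, below 1 in all 6 tumours.

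Median UMIs per Hybrid2 cell were 2792 for E, 1793.5 for EM1, 1680 for EM2, 2706 for EM3, 2197.5 for M and 1648 for the parental tumour, where granulocytes had 1081.5, 739, 690, 1220, 990 and 690. Hybrid2 was deeper than T cells and than granulocytes in every tumour. Divided by the sum of the T and granulocyte medians, the Hybrid2 median was 0.999, 1.00, 1.01, 0.921, 0.922 and 0.959. Summing the UMIs of every pair of a T cell and a granulocyte of a library gave medians of 1780 to 3095, and 33.8% to 46.1% of Hybrid2 cells were above that median in their tumour. For Hybrid1 and T with macrophage sums, 22.2% to 39.0% were above. Both groups were thus below the median pair sum in all 6 tumours, at 0.874 to 0.95 of it for Hybrid2 and 0.699 to 0.890 for Hybrid1.

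The median mitochondrial share of UMIs, as deposited, was 0.220% to 0.515% in Hybrid1 and 0.158% to 0.716% in Hybrid2 over the tumours. It was 0.312% to 0.972% in T cells, 0.134% to 0.407% in macrophages and 0.0618% to 0.328% in granulocytes.

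**Figure D2:**
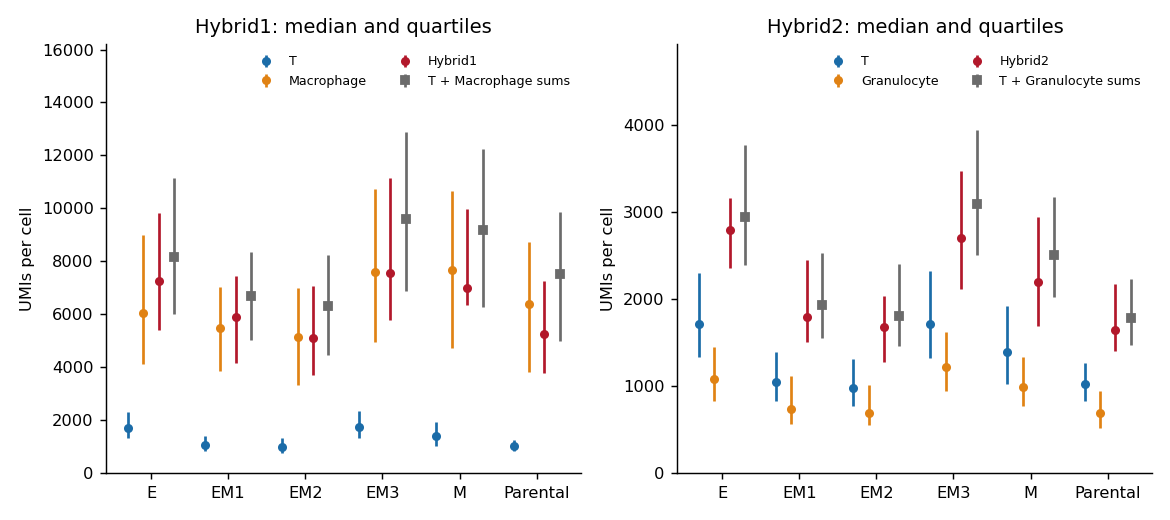
UMIs per cell by tumour for Hybrid1 (left) and Hybrid2 (right) beside T cells, the myeloid partner class and sums of 1 T cell and 1 partner cell; points are medians and bars quartiles. Medians of Hybrid1 (5094 to 7539) and Hybrid2 (1648 to 2792) are both below the median sums in all 6 tumours.

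By median, Hybrid1 cells held at least as many T UMIs as T cells in every tumour, and Hybrid2 cells held fewer. Hybrid1 cells held a median of 16, 13, 11, 16, 11 and 11 UMIs of the 13 T genes in E, EM1, EM2, EM3, M and the parental tumour, where T cells held 15, 10, 9, 14.5, 11 and 8. Hybrid2 cells held 14, 9, 6, 13, 9 and 7, and macrophages and granulocytes had medians of 0. The 22 Hybrid2 cells that the reference-based label calls mast cells, described below, held a median of 1. Pooled over tumours, the other Hybrid2 cells held a median of 11, as did T cells. On the myeloid side, Hybrid1 had 193.5, 269, 131, 172, 310.5 and 119 UMIs of the 13 macrophage genes, fewer than the 244, 382, 310.5, 343, 445.5 and 338 of macrophages in each tumour. Hybrid2 had 89, 93.5, 67, 115, 92 and 53 UMIs of the 7 granulocyte genes, beside 87, 93, 88, 131, 92 and 64 in granulocytes.

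UMIs of both lineages were read together in nearly all hybrids, and also in nearly all T cells. At least 1 UMI of the T genes and 1 of the myeloid genes was found in 98.4% of hybrids (97.3% to 99.1%; median depth 4185 UMIs) and in 98.2% of T cells (median 1253 UMIs). Annotated B cells gave 22.8%, and 20.2% without the 62 that the authors name hybrids of B and T cells (median 1033.5 UMIs), with myeloid UMIs in 98.5% of the latter. Single myeloid UMIs in T cells are therefore not read as expression here, and no background level was estimated. For T genes the classes were further apart: the pair was found in 13.6% of macrophages and 10.7% of granulocytes. With each cell thinned to 1000 UMIs the share was 88.3% in hybrids, 93.8% in T cells, 15.5% in B cells without B and T hybrids, 2.82% in macrophages and 8.88% in granulocytes. Shallower cells were left out: 13 hybrids, 3161 T cells, 857 B cells, 124 macrophages and 7014 of 13486 granulocytes.

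At least 5 UMIs of the T genes were found in 476 of 518 Hybrid1 cells (91.9%), 293 of 355 Hybrid2 cells (82.5%) and 88.3% of T cells. Among the 22 mast-labelled Hybrid2 cells, described below, 2 held that many. At least 5 T UMIs were found in 23 of 24267 macrophages and 13 of 13486 granulocytes. Dendritic cells were the exception among myeloid classes, with 327 of 1498 (21.8%). Of those 327, 289 also held at least 50 UMIs of the macrophage genes, and the reference-based label called 279 of the 289 macrophages.

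A fit of each cell's UMIs as a mixture of 2 profiles of its own library gave the T share of its RNA. For Hybrid1 with T and macrophage profiles the median T share was 27% for E, 24% for EM1, 28% for EM2, 24% for EM3, 24% for M and 22% for the parental tumour. Over all pairs of a T cell and a macrophage of the library, the median share of the summed UMIs that came from the T cell was 22.6%, 17.0%, 17.0%, 19.2%, 16.4% and 14.5%, so the fitted share was higher in all 6. For Hybrid2 with T and granulocyte profiles the medians were 61%, 60%, 66%, 56%, 52% and 68%, against 61.5%, 58.2%, 57.7%, 58.5%, 58.2% and 59.5% over pairs of a T cell and a granulocyte. No hybrid cell had a fitted T share under 4% or over 96%. Fitted on the marker lists alone, which gives the T share of the listed genes' UMIs, the median over tumours was 12% for Hybrid1 and 17% for Hybrid2. On that scale the pairs gave 4.02% to 9.35% and 12.6% to 20.2%, and Hybrid1 was higher in all 6 tumours.

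Each hybrid was then given the T class and the myeloid class of the authors' annotation whose pair fitted its UMIs best. Hybrid1 was assigned to a T cell with a macrophage in 474 of 518 cells (91.5%), with an other myeloid cell in 29, with a dendritic cell in 12 and with a granulocyte in 3. Hybrid2 was assigned to a T cell with a granulocyte in 335 of 355 cells (94.4%) and with a macrophage in 12. The most frequent pairs in Hybrid1 were Gzmb+ Cd8+ T with macrophage (117 cells) and Cd44- Cd4+ T with macrophage (108). In Hybrid2 the most frequent was Cd44- Cd4+ T with granulocyte (101 cells).

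All 7 annotated T classes appeared on the T side. The hybrid shares are calls of the fit, while the shares of T cells are the authors' annotation, so the measures differ. Whether the fit favours some of the 7 classes is not given here. Cytotoxic Gzmb+ Cd8+ T cells made up 25.7% of Hybrid1 and 18.0% of Hybrid2, against 19.1% of all annotated T cells. Lef1+ Cd8+ T cells made up 17.4% and 15.8%, against 9.85%. Cd44- Cd4+ T cells made up 22.4% and 28.7%, against 33.9%, and Foxp3+ Cd4+ T cells, the regulatory class, 14.9% and 10.4%, against 12.8%. Trdc+ DN T cells, which carry a gamma-delta receptor chain, made up 0.772% of Hybrid1 and 5.63% of Hybrid2 (20 cells), against 1.05%. Of those 20, 15 were among the 32 mast- and basophil-labelled cells described below, none of which was assigned a CD8 class. Without the 32 the Trdc+ DN share of Hybrid2 was 1.55% (0.504% to 3.58%), Gzmb+ Cd8+ T 19.8% and Cd44- Cd4+ T 31.6%.

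These pooled shares weight the tumours unequally, so the 2 CD8 classes were also taken within each tumour. Their share of Hybrid1 was 51.4% for E, 42.1% for EM1, 34.3% for EM2, 50.4% for EM3, 25% for M and 14.8% for the parental tumour. Among the T cells of the same libraries it was 41.9%, 26.2%, 18.1%, 47.0%, 18.9% and 4.48%. Hybrid1 was higher in 6 of 6 tumours, and the library value lay below the 95% interval of Hybrid1 in E (43.0% to 59.7%), EM1 (32.0% to 52.7%) and EM2 (25.1% to 44.6%). In EM3 (41.4% to 59.4%) and M (9.77% to 46.7%) the interval covered the library value, and in the parental tumour its lower end was 4.19%. Hybrid2 gave 47.4%, 27.6%, 15.7%, 54.9%, 20% and 17.2%, higher in 5 of 6. Without the labelled cells it gave 48.7%, 29.6%, 18.2%, 60%, 23.3% and 20.8%. The lower pooled share of Cd44- Cd4+ T cells held in 6 of 6 tumours for Hybrid1 but not for Hybrid2, which was above its library in E (33.3% against 22.5%) and EM1 (51.3% against 47.4%), and without the labelled cells also in the parental tumour (70.8% against 67.3%). Direct counts of the CD8 genes did not follow the fitted share in every tumour. Cd8a and Cd8b1, the CD8 chains, stood at 4.30 and 3.51 UMIs per 100 T gene UMIs in Hybrid1 of EM3, against 4.76 and 4.41 in its T cells. In the other tumours both were higher in Hybrid1 than in T cells, from 8 and 7 UMIs in M and 6 and 9 in the parental tumour. The values were close for Cd8a in E (6.29 against 6.14) and for Cd8b1 in EM1 (4.35 against 4.25). In Hybrid2, Cd8a was below T cells in EM1 and M (1.16 against 1.48 in M), and Cd8b1 in EM3, M and the parental tumour (0.385 against 1.59 in M, from 2 UMIs). The classes on the T side come from a fit to few T UMIs per cell, and no test was run on them.

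**Figure D3:**
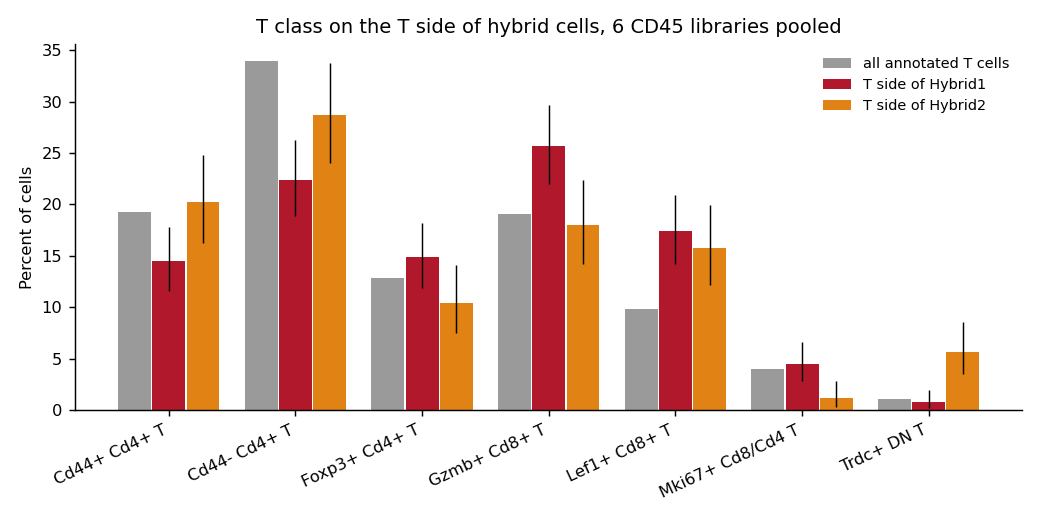
Percent of Hybrid1 (red) and Hybrid2 (orange) cells assigned to each of 7 T classes, beside the percent of all annotated T cells in that class (grey), 6 CD45 libraries pooled; bars on the hybrids are 95% Clopper-Pearson intervals. Both CD8 classes are above the grey bar in Hybrid1 (25.7% and 17.4%), and Cd44- Cd4+ T is below it in both when tumours are pooled, though not within E and EM1 for Hybrid2.

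How many such cells would arise if T and myeloid cells entered droplets independently was computed from the droplets that libraries share. The number of droplets per well, from the overlap of its libraries, was 69287 for E and EM3, 73753 for EM1 and EM2, 70539 for M and 66194 for the parental tumour. The expected count is the number of T cells times the number of partner cells, divided by the droplets. Hybrids of the pair were counted on both sides, among the T cells and among the partner cells. For Hybrid1 the observed and expected counts were 146 and 150 for E, 95 and 146 for EM1, 99 and 123 for EM2, 127 and 140 for EM3, 24 and 26 for M, and 27 and 43.9 for the parental tumour. Over all tumours 518 were observed and 629 expected, a ratio of 0.824 (Poisson interval 0.754 to 0.898). Observed Hybrid1 counts were below the expected in all 6. The intervals of single tumours covered 1 in E (0.824 to 1.15), EM3 (0.754 to 1.08) and M (0.592 to 1.37).

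For Hybrid2, T cells with granulocytes, the observed and expected counts were 78 and 72.2 for E, 76 and 62.3 for EM1, 51 and 28.5 for EM2, 71 and 78.7 for EM3, 50 and 40.3 for M, and 29 and 21.4 for the parental tumour. The total was 355 against 303, a ratio of 1.17 (1.05 to 1.30). EM2 had the highest ratio, 1.79 (1.33 to 2.35), and EM3 was the 1 tumour below 1. The 355 include 32 cells that the reference-based label calls mast cells or basophils, described below. Without them 323 were observed against 302 expected, a ratio of 1.07 (0.957 to 1.19) whose interval covers 1, and EM2 stood at 1.56 (1.13 to 2.09). Cells that the authors annotated as a hybrid of B and T cells gave 62 against 56.1, a ratio of 1.11 (0.847 to 1.42).

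The annotation does not hold every cell with both lineages. Counting every CD45 cell with at least 5 UMIs of the T genes and 50 of the macrophage genes, minimums chosen after the data were seen, gave 802 cells against 665 expected. By tumour the observed and expected counts were 222 and 167 for E, 161 and 153 for EM1, 142 and 119 for EM2, 198 and 160 for EM3, 32 and 26.7 for M, and 47 and 39.8 for the parental tumour. The ratio was above 1 in all 6, from 1.05 to 1.33 with a median of 1.2. Of the 802 cells, 450 were annotated T/Myeloid Hybrid and 289 as dendritic cells. With 20 UMIs of the granulocyte genes, 386 cells were counted against 308 expected, the ratio was 1.12 to 1.61, and 301 were annotated as hybrids. Hybrid1 was thus below the expected number as annotated, and T with macrophage cells were above it by UMI minimum. The intervals of single tumours covered 1 in EM1, M and the parental tumour for the macrophage pair. For the granulocyte pair they covered 1 in EM1 (0.949 to 1.53), EM3 (0.911 to 1.35), M (0.879 to 1.66) and the parental tumour (0.692 to 1.79).

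**Figure D4:**
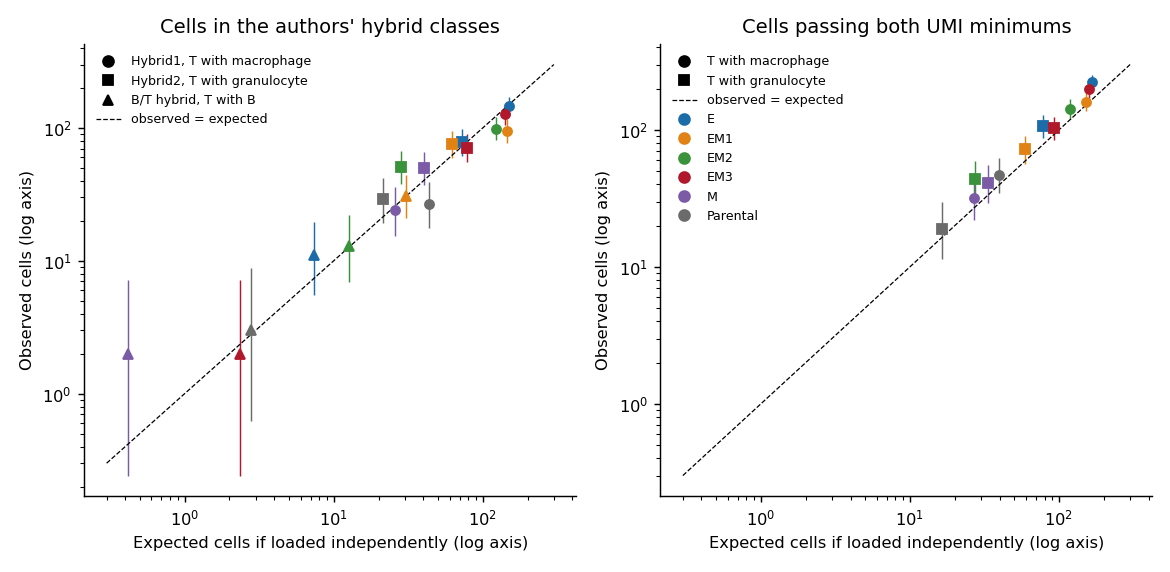
Observed against expected cell counts on log axes, coloured by tumour, with the dashed line at equality; left, the authors' Hybrid1, Hybrid2 and B with T hybrids, right, cells past both UMI minimums. Hybrid1 points lie below the line (518 against 629 in all) and the T with macrophage points of the CD45 libraries lie above it (802 against 665).

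The 289 cells annotated as dendritic were picked by their T and macrophage UMIs, so those genes only restate the choice. The authors' reference-based label called 279 of the 289 macrophages. In the 289, genes and depth differed from the rest of the class. Their median depth was 9233 UMIs, where the other 1209 dendritic cells had 4381. Minimums on UMIs favour deep cells, so part of this depth difference may come with the choice. Fscn1 and Flt3, genes of dendritic cells, stood at 1.40 CPM each, against 522 and 49.2. Thbs1, which encodes thrombospondin-1, a secreted matrix protein, was 3116 CPM in them and 7095 CPM in the 444 Hybrid1 cells past the same minimums. Beside those Hybrid1 cells, the 289 held more C1qa (5064 against 2692 CPM), Apoe (29142 against 18137) and Mrc1 (1176 against 686).

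How often a hybrid's droplet also held a cell of another library is a measure that does not use the genes that set the class. That share of hybrids was 39.3% for E, 33.3% for EM1, 27.3% for EM2, 36.4% for EM3, 17.6% for M and 16.1% for the parental tumour. Among other cells it was 36.5%, 31.3%, 31.0%, 36.1%, 19.1% and 16.4%. Hybrids were higher in 3 tumours and lower in 3. The mean difference, hybrids minus others, was -0.0603 percentage points (SD 2.35, n = 6), with p = 0.969 in an exact two-sided sign-flip permutation test whose smallest possible p is 0.0313. Tumours of one well were scored partly against each other, E with EM3 and EM1 with EM2, so the 6 differences are not independent. M and the parental tumour were scored only against their own Total library. With independent loading the same share is expected of single cells, attached pairs and separately loaded pairs, so the comparison cannot tell these apart. Taken apart, the groups ran in different directions in single tumours. Hybrid1 minus other cells was 7.35 points for E, 7.62 for EM1, -6.73 for EM2, 1.74 for EM3, -2.44 for M and -8.97 for the parental tumour, and Hybrid2 gave -5.72, -5.01, 2.36, -2.25, -1.11 and 7.76. The means were -0.237 (SD 7.02, n = 6, p = 0.938) and -0.660 (SD 5.04, n = 6, p = 0.781) by the same exact permutation test, with an adjusted p of 0.969 for each over the 3 comparisons. For all hybrids, without the EM2 tumour the mean difference was 0.655 and without M it was 0.235.

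Across the 6 tumours the hybrid share was compared with the product of the T and myeloid shares, which leaves out the number of cells in a library. For all hybrids with macrophages and other myeloid cells, Pearson's r was 0.660 (exact permutation p = 0.171) and Spearman's rho 0.657 (exact permutation p = 0.175), and r was 0.481 without M and EM1. Without cells called doublets by the scores of the next paragraph it was 0.215 (exact permutation p = 0.683). For Hybrid1 with macrophages r was 0.696 (exact permutation p = 0.136) and rho 0.486 (exact permutation p = 0.356), and r was 0.569 without M and EM1. For Hybrid2 with granulocytes r was 0.781 (exact permutation p = 0.0611) and rho 0.771 (exact permutation p = 0.103), and r was 0.396 without EM2 and the parental tumour. Over the 6 coefficients the lowest Benjamini-Hochberg adjusted p was 0.21, so none passed 0.05.

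Doublet scores by the Scrublet method, which compares each cell with simulated sums of 2 cells, called 645 of 873 hybrids (73.9%, 70.8% to 76.8%). The share was 83.2% in Hybrid1 and 60.3% in Hybrid2, against 0.0708% of T cells, 2.20% of macrophages, 0.119% of granulocytes and 2.74% of all cells. By tumour it was 83.6%, 91.6%, 88.9%, 70.9%, 83.3% and 88.9% of Hybrid1, and 67.9%, 67.1%, 47.1%, 62.0%, 60.0% and 41.4% of Hybrid2, in E, EM1, EM2, EM3, M and the parental tumour. Hybrid1 was higher than Hybrid2 in every tumour. Dendritic cells were called in 13.4%, and the 289 with both gene sets in 59.5%. The method asks whether a profile resembles a sum of 2 profiles, so attached pairs and separately loaded pairs cannot be told apart by it. In M the limit set from that library alone called 0 of 24 Hybrid1 cells.

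Expression was compared with a mixture of 13 annotated classes fitted to the summed hybrids of each tumour. A gene was called where hybrids and mixture differed by a mean of at least 1 log2 unit (on CPM + 10) with the same sign in all 6 tumours. Over all hybrids 13 genes were higher (0.239% of 5445 tested) and 11 lower (0.202%), and 98.0% of genes were within 0.5 log2 unit. The 10 most abundant genes of the hybrids were Apoe, Cd74, Tmsb4x, Srgn, Cd14, S100a9, Fth1, Thbs1, Il1b and H2-Aa. In Hybrid1 no gene was called higher (0%) and 12 were called lower (0.221% of 5441). With no replicate tumours the rule is a size limit, not a test.

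None of the 13 listed macrophage genes was among the 12 genes lower in Hybrid1. Of those 12, Cd163, a haemoglobin scavenger receptor, stood at 6.81, 6.93, 26, 19.4, 9.97 and 0 CPM in E, EM1, EM2, EM3, M and the parental tumour, against 19.6, 41.3, 32.6, 65.7, 124 and 44.4 in the mixture (mean log2 difference -1.54). Folr2, a folate receptor of tissue macrophages, differed by -1.11, and Timd4, a receptor for phosphatidylserine, by -1.01. Of the chemokines, Ccl12 differed by -1.60, Ccl7 by -1.44 and Cxcl9, an interferon-induced ligand of Cxcr3, by -1.03. The others were Cbr2, Fcna, C4b, Il17a, Igkc and Ighg1, the last 2 being immunoglobulin genes. Timd4 stood at 1.70, 13.9, 11.2, 0.923, 0 and 0 CPM, against 2.80, 38.0, 28.2, 7.38, 58.4 and 5.34 in the mixture. Timd4, Cxcl9, Il17a, Igkc and Ighg1 were at 0 CPM in M and the parental tumour, which had 24 and 27 Hybrid1 cells. A gene at 0 scores as lower whatever the mixture holds, so the same-sign rule is weak there.

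In a separate list of 8 macrophage state genes none was called in Hybrid1, and Thbs1 was furthest above the mixture, without meeting the rule. Its level was 5375, 2785, 6052, 11251, 7835 and 10140 CPM in the 6 tumours in that order, against 4512, 1848, 3284, 6885, 2733 and 3874 in the mixture. Hybrid1 was above the mixture in 6 of 6 tumours, by a mean of 0.89 log2 units. Il1b, a cytokine gene, was above in 6 of 6 (mean 0.69) and Vcan, a proteoglycan gene of monocytes, in 5 of 6 (0.83). The 8 state genes had a median of -0.05, beside -0.02 over all genes tested. Cd36, a scavenger receptor in a list of genes for the uptake of dying cells, was above in 6 of 6 (0.64). It was the highest of the 6 tested in that list, where the median was -0.43 and Timd4 was called lower. C1qa was below the mixture in 6 of 6 (-0.49), as were Apoe (-0.41) and Mrc1 (-0.43), which encode apolipoprotein E and the mannose receptor. Cells annotated as dendritic that held T and macrophage UMIs had more C1qa, Apoe and Mrc1 than Hybrid1 cells past the same minimums. These differences therefore describe Hybrid1 as annotated, not all T with macrophage cells.

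On the T side of Hybrid1, 0 of 12 tested T genes were called, with a median difference of -0.02, equal to that of all genes tested. The mixture was fitted to the same UMIs, so T genes help set its T weights and a small difference is partly built in. Cd3e differed by 0.02 and Pdcd1, the checkpoint receptor PD-1, by -0.07. None of 5 cytotoxic genes (median -0.18), 6 checkpoint genes (-0.06), 5 regulatory T genes (-0.17) or 8 interferon-gamma response genes (-0.24) was called. None of 8 genes of MHC class II and costimulation (-0.06) or 5 early activation genes (0.19) was called either. Cd80, a costimulatory ligand, was above the mixture in 6 of 6 tumours by 0.56, and Vcam1, an adhesion molecule, was below it by 0.99 on average and higher in 1. Cxcl9 was the 1 called gene in a list of 8 chemokine genes (median -0.35), beside 12 of all 5441 genes called lower (0.221%). Ccl12 and Ccl7, also called lower, are not in that list.

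Hybrid2 differed more from its mixture, with 33 genes higher (0.543% of 6075) and 49 lower (0.807%). The highest were mast cell genes: Tpsab1, a tryptase, stood at 9128, 5703, 28786, 6117, 612 and 34275 CPM, against 1.39 to 81.8 in the mixture. Mcpt1, Mcpt2 and Mcpt4, mast cell proteases, differed by 6.52, 6.94 and 5.40 log2 units. Il6 (4.68), Gzmb (1.67), encoding granzyme B, and Ccl3 (1.06), a chemokine, were also called higher. Camp (-3.74), Ltf (-3.41) and Ngp (-3.12), granule genes of maturing neutrophils, were called lower in all 6 tumours.

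Cells that the reference-based label called mast cells or basophils carried those higher genes. All 22 mast-labelled cells of the CD45 libraries were in Hybrid2 (2 for E, 4 for EM1, 7 for EM2, 4 for EM3, 1 for M and 4 for the parental tumour), as were 10 of 16 basophil-labelled cells. The mast-labelled cells held a median of 1 T UMI, and Tpsab1 stood at 160002 CPM in them. Trac was at 0 of their UMIs, and Cd3e was at 22 UMIs, or 400 CPM (251 to 605). In the remaining 323 Hybrid2 cells Tpsab1 was 39.7 CPM, Trac 802, Cd3e 796 and S100a8 24876. Il6 was 21187 CPM and Gzmb 24878 CPM in the basophil-labelled cells, against 25.6 and 313 CPM in the remaining 323. Fitted without these 32 cells, Hybrid2 had 0 genes higher (0% of 5987) and 17 lower (0.284%), 13 of them among the 49. Camp, Ltf and Ngp were among the 17.

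With all Hybrid2 cells, 49 of 6075 genes were called lower (0.807%). Of 7 tested genes of MHC class II and costimulation 4 were called lower: Cd74 (-1.35), H2-Eb1 (-1.33), H2-Ab1 (-1.28) and H2-Aa (-1.23). Of 12 macrophage genes 4 were called lower, among them Mrc1 (-1.26), C1qa (-1.09) and Fcgr1 (-1.02). No gene of these 2 lists was called without the mast- and basophil-labelled cells. Of 6 tested macrophage state genes 2 stayed lower without them, Thbs1 (-1.36 with all cells, -1.17 without) and Arg1 (-1.24 and -1.16), which encodes arginase 1, as did the chemokine Cxcl16 (-1.41 and -1.21). Over all genes 17 of 5987 were lower without them (0.284%). Cd74 then differed by -0.89, H2-Eb1 by -0.86, H2-Ab1 by -0.89 and H2-Aa by -0.85, lower in 6 of 6 tumours each, C1qa by -0.93 and Mrc1 by -0.93, and Fcgr1 did not reach the CPM minimum. C1qa was also read in annotated T cells (286 to 714 CPM), and the part of background RNA in these differences was not tested. With all Hybrid2 cells, none of 13 T genes (median -0.03) or 7 granulocyte genes (-0.17) was called, beside -0.09 over all genes. Without the labelled cells none was called either, and the medians were 0.02, -0.05 and -0.06. T and granulocyte genes help set the weights of these fits, so small differences in them are partly built in.

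**Figure D5:**
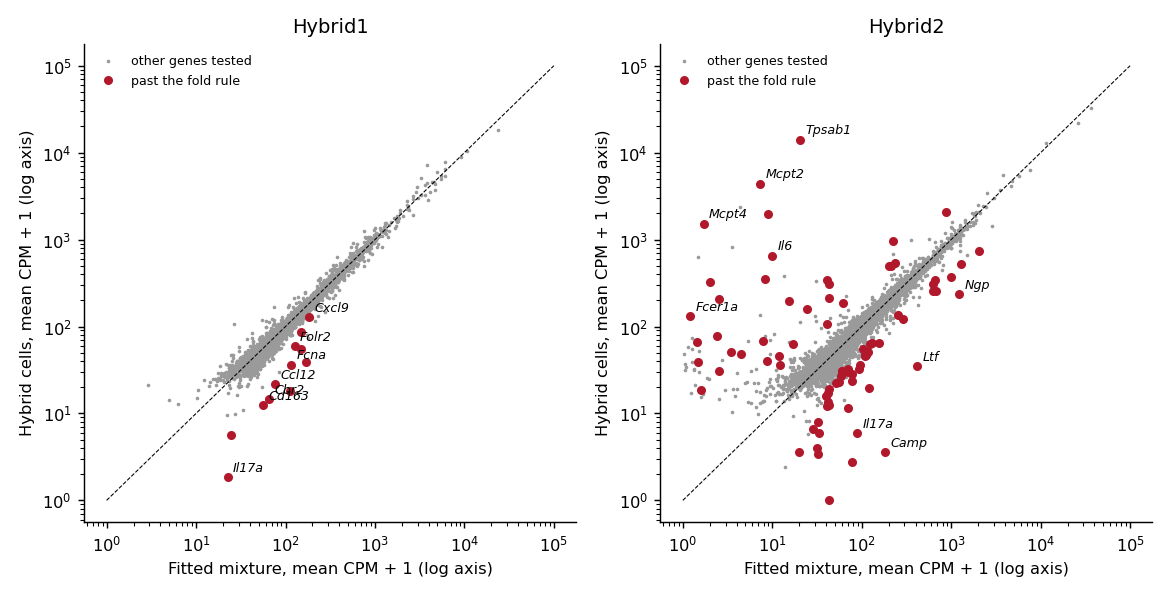
Mean CPM + 1 of hybrids (y) against their fitted mixture (x), both on log axes, with Hybrid1 and Hybrid2 in separate panels; each point is a gene, red where the fold rule was met. In Hybrid1 all 12 red points are below the diagonal, and in Hybrid2 the points furthest above it are mast cell genes.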

How the data were processed

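Per the labels' protocols, cells were fixed with the Chromium Fixed RNA kit, and 3′ v3.1 reagents are also named; Cell Ranger and mm10 come from the submitters' processing notes. The authors deposited raw UMI counts per gene and cell, with class names and, per cell, the mitochondrial share as a percent, the same as a fraction, and the ratio of log10 genes to log10 UMIs, the last pair not used here. The authors' cells and classes were taken as deposited. How the authors treated doublets is not given in the sources used here. Cells were summed per class and library to CPM. The Scrublet method was rebuilt (6% expected doublets) with 1 limit for all libraries, 0.253, the median of the 12 library valleys. Mixtures were fitted by multinomial likelihood with profiles from classes of at least 50 cells, in steps of 0.02 per cell, and genes needed 50 CPM in the hybrids or the mixture of any library. Some classes had fewer cells in a library and were still assigned, such as Gzmb+ Cd8+ T (8 cells) and Lef1+ Cd8+ T (28) in the parental tumour. Which profile stood for such classes is not given here. The dendritic class, 1 of the 13 sources, itself holds cells with T and macrophage UMIs, and the B class holds those the authors name hybrids of B and T cells. Named genes are those of the marker lists and gene groups that a result turns on, the 10 highest and 10 lowest called genes and the 10 most abundant. Some genes of these lists are not reported here. Members and lists were chosen with earlier results of these data known. Scripts ran in Python 3.11.15 with numpy 2.4.6, scipy 1.17.1 and scikit-learn 1.9.0, and were tested on simulated data.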

Additional observations from a re-analysis of the deposited data

Results flagged for a closer look

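The Total libraries, whose annotation has no hybrid class, also held cells with at least 5 UMIs of the T genes together with 50 of the macrophage genes or 20 of the granulocyte genes, which is a signal outside the hybrid annotation. T with macrophage cells numbered 197 for the E Total library, 20 for EM1, 86 for EM2, 76 for EM3, 46 for M and 42 for the parental tumour. The ratio to the number expected from droplet loading was 0.948 to 1.59, and M was the 1 library below 1. T with granulocyte cells numbered 122 for E, 8 for EM1, 20 for EM2, 36 for EM3, 79 for M and 18 for the parental tumour, with ratios of 0.882 to 2.07, and EM1 was the 1 library below 1. The class most often given to the T with macrophage cells was Macrophage in all 6 Total libraries (160 of 197 in E), and to the T with granulocyte cells T/NK (90 of 122 in E). The minimums were chosen after the data were seen, and the cause of these counts was not tested.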

How the results depend on the processing

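Of 104 alternative settings, 58 were scored as the same, 44 moved the result and 2 reversed its sign. Same meant within the spread, except for droplet sharing and the correlation of hybrid share with the product of T and myeloid shares. For these it meant that the sign held and the p-value stayed on the same side of the limit. It does not mean a close value there: r was 0.660 in the main setting and 0.215 without called doublets. The median hybrid share of 1.72% was 0.393% without Scrublet-called doublets, 2.04% with at least 650 genes per cell and 2.44% over T cells, macrophages and hybrids alone. The depth ratio of Hybrid2, 0.979, was 0.866 in genes per cell and 0.870 with means. Co-detection in 98.4% of hybrids was 96.9% at 2 UMIs each, 88.3% and 95.3% after thinning to 1000 and 2000 UMIs, and 59.3% for Cd3e with C1qa or Csf1r. The T part of Hybrid1, 24%, was 12% on marker lists alone (a share of listed UMIs) and 30.5% without called doublets; that of Hybrid2, 60.5%, was 17% and 71%. Among hybrids with at least 2000 UMIs the CD8 share of 39.3% was 43.8% and the macrophage share of 55.7% was 65.8%.

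Genes higher than the mixture, 13, were 7 with pseudocount 50, 5 at 200 CPM, 60 with 2 sources, 30 without called doublets, 0 in Hybrid1, 33 in Hybrid2 and 0 in Hybrid2 without mast- and basophil-labelled cells. Genes lower, 11, were 17 with pseudocount 1, 2 with pseudocount 50, 2 at 200 CPM, 40 without called doublets, 49 in Hybrid2 and 17 in Hybrid2 without the labelled cells. Leaving out 1 tumour gave 10 to 17 higher and 12 to 18 lower, 18 without E. Doublet calls, 73.9%, were 69.6% with each library's own limit and 77.5% at 12% expected doublets. Without called doublets the coincidence ratio was 0.287 for macrophages (1.2) and 0.619 for granulocytes (1.22). With all cells kept and 10 granulocyte UMIs the granulocyte ratio was 1.51. The droplet sharing difference of -0.0603 ran from -0.632 to 0.655 without 1 tumour, positive without EM2 (0.655) and without M (0.235). Removing called doublets takes away most hybrids by construction, and for the other moved values the cause was not tested. With 1 tumour a group, few T UMIs per cell and background RNA limit what single cells and single tumours show.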
